A study of Mus musculus with 16 samples.

Results

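As3mt, Ccdc80, Itga3 and Limd2 are 4 mouse genes whose mRNA levels were raised in E9.5 embryos lacking KAT6A and stayed raised when those embryos carried extra copies of Kat6b. They were picked by symbol from the 26411 genes counted, as genes called higher in both Kat6a-/- genotypes than in Kat6a+/+Kat6b+/+ embryos. All 4 passed the filter on low counts, as did 15679 genes in all. The same calls were made for 6 genes, or 0.0383% of the genes tested, and the other two, Cyct and Hgsnat, are described further down. Because the measured levels chose the genes, their differences from Kat6a+/+Kat6b+/+ embryos are given below as a description with no test.

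RNA was sequenced from 16 whole embryos at E9.5, with 4 embryos in each of 4 genotypes, all on a mixed FVB x BALB/c background. Kat6a+/+Kat6b+/+ embryos were the wild type, and Kat6a-/-Kat6b+/+ embryos were homozygous for a Kat6a allele from which internal exons are deleted. The transgenic genotypes, Kat6a+/+Tg(Kat6b) as well as Kat6a-/-Tg(Kat6b), carried a bacterial artificial chromosome that holds the Kat6b locus, present as several copies in a line from 1 founder. Each group held 2 females and 2 males. The embryos came from 6 litters, and genotypes were not spread evenly over them. All 4 Kat6a-/-Kat6b+/+ embryos came from litters 801 and 803, each of which also gave 1 wild-type male. All 4 Kat6a+/+Tg(Kat6b) embryos came from litters 2597 and 2598, each of which also gave 1 wild-type female. All 4 Kat6a-/-Tg(Kat6b) embryos came from litters 483 and 498, which held no other genotype. Genotype and litter cannot therefore be told apart wherever Kat6a-/-Tg(Kat6b) embryos are compared with another group.

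KAT6A and KAT6B are paralogous MYST-family acetyltransferases that acetylate lysines of histone H3 and are best known in the embryo for maintaining transcription of patterning genes. AS3MT transfers methyl groups from S-adenosylmethionine to inorganic arsenic. CCDC80 is a secreted protein of the extracellular matrix. ITGA3 is the integrin alpha 3 chain, which pairs with ITGB1 to form a laminin receptor and binds the tetraspanin CD151. LIMD2 is a small LIM-domain protein that binds integrin-linked kinase.

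In GRCm39, As3mt lies on the plus strand at chr19:46695865-46729538 and Ccdc80 on the plus strand at chr16:44913765-44951519. Itga3 lies on the minus strand at chr11:94935296-94967682 and Limd2 on the minus strand at chr11:106046386-106051754. All 4 are protein-coding genes, with 12, 8, 26 and 4 merged exons. Counting may not have used strand, and annotated exons on the opposite strand cover 3.24% of the exon bases of As3mt, 6.17% of those of Ccdc80 and 7.37% of those of Itga3. For Limd2 the share is 26.7%, of which 223 bases belong to Map3k3, so reads of Limd2 are the least certain of the 4.

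Promoter sequence is shown because these genes were high in the same embryos. The RefSeq promoter table, which uses GRCm38.p6, held As3mt, Itga3 and Limd2. The 250 bases before the most upstream listed start of each gene are printed 5' to 3' on the gene's strand, from chr19:46707208-46707457 (plus), chr11:95076715-95076964 (minus) and chr11:106160730-106160979 (minus). Capitals mark matches to 5 motifs on either strand. A GC box was searched as GGGCGG, and a CCAAT box by the 5 letters of its name. The TATA box was searched as TATAAA in the same windows. For an AP-1 site the letters TGANTCA were used, with any base at N. An E-box was searched as CACGTG.
As3mt: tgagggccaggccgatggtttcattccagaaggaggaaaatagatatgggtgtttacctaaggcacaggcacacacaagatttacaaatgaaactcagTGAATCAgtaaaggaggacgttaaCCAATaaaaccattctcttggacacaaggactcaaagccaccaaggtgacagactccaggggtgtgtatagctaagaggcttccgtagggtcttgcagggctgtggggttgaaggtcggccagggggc
Itga3: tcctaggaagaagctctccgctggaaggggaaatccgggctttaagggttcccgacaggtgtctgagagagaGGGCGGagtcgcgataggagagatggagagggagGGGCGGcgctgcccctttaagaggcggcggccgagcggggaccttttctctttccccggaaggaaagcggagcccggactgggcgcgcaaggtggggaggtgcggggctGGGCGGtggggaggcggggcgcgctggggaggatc
Limd2: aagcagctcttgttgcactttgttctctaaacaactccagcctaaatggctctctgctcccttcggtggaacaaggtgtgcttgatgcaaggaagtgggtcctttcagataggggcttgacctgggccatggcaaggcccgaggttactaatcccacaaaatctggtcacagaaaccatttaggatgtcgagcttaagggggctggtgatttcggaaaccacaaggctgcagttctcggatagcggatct
The Itga3 window held 3 GC boxes, 67.6% G and C and 22 CpG. The As3mt window held 1 AP-1 site and 1 CCAAT box, with 49.6% G and C and 4 CpG. None of the 5 motifs was in the Limd2 window, which had 50.8% G and C and 6 CpG. Over 32851 windows of the same length in the table, 32.7% held a GC box, 33.8% a CCAAT box, 12.4% a TATA box, 6.75% an AP-1 site and 6.02% an E-box, and the median G and C content was 52.4%. No motif was shared by the 3 windows, which says only that these letters are not in these stretches.

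Libraries held 14407277 to 45665680 counts. Kat6b, the targeted gene of the transgene, averaged 46.2 ± 2.45 CPM (counts scaled by TMM to a common library size; mean ± SD, n = 4) in wild type and 49.1 ± 2.03 in Kat6a-/-Kat6b+/+ embryos. Transgenic embryos averaged 192 ± 29.7 with KAT6A and 197 ± 4.92 without it, so all 8 transgenic libraries matched their labels. Kat6a counts cover the whole gene and averaged 199 ± 16.5 in wild type and 202 ± 15.2 in Kat6a-/-Kat6b+/+ embryos. They do not check a deletion inside the gene. The embryo was sequenced whole, so a change in the number of cells that express a gene and a change in RNA per cell cannot be told apart.

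**Figure D1:**
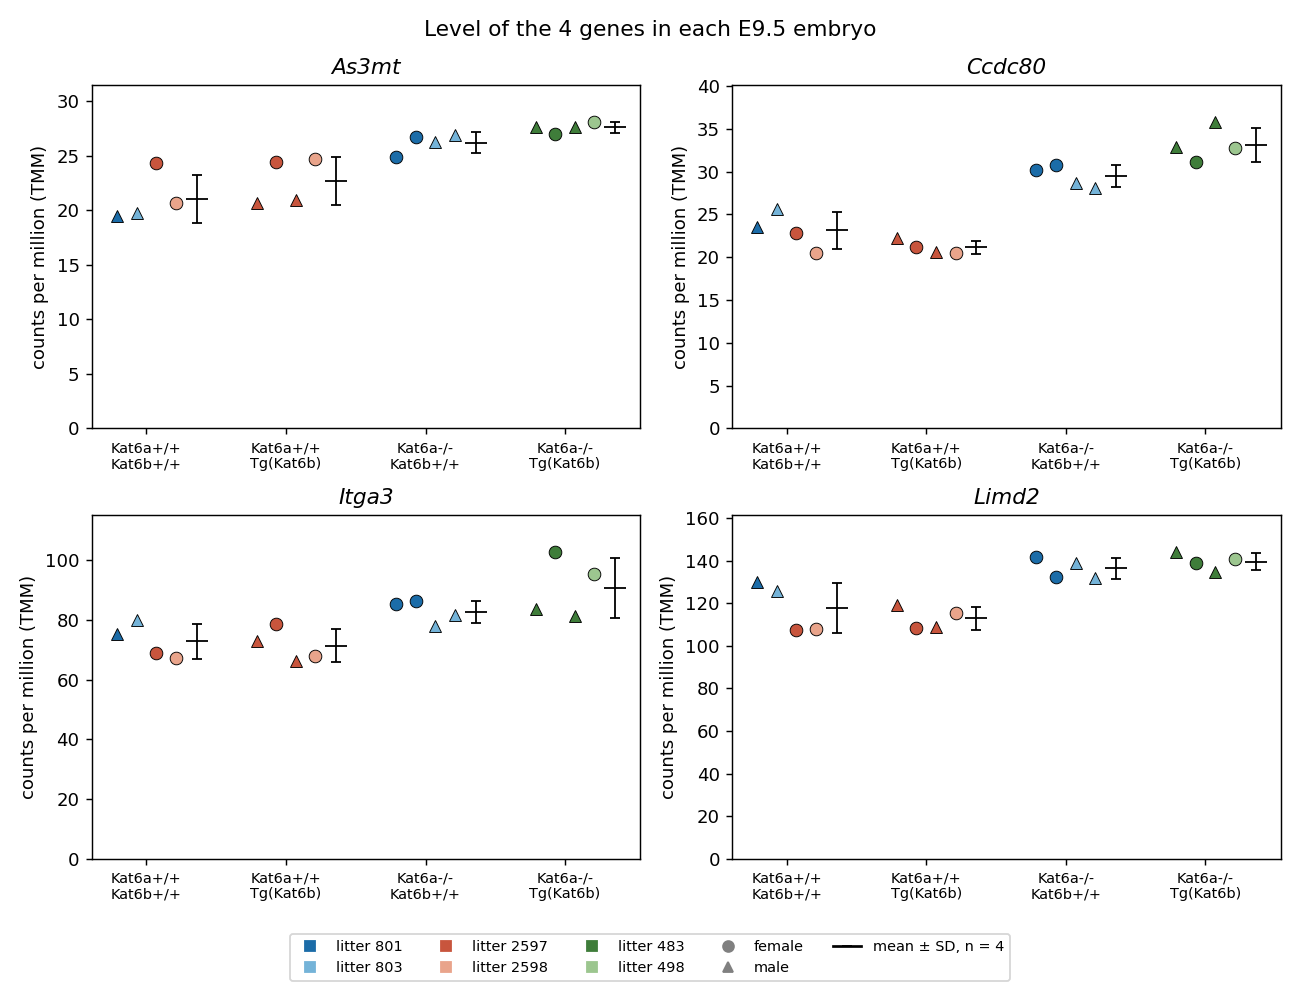
TMM-scaled CPM of As3mt, Ccdc80, Itga3 and Limd2 in each of the 16 embryos, by genotype. Circles are females and triangles males, colours are litters, and bars show the mean ± SD of 4 embryos. Every Kat6a-/-Tg(Kat6b) embryo lies above every Kat6a+/+ embryo in all 4 panels. The wild-type embryos of litters 801 and 803 lie above those of litters 2597 and 2598 for Ccdc80, Itga3 and Limd2, and below them for As3mt.

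As3mt was at 19.5, 19.8, 24.3 and 20.7 CPM in the 4 wild-type embryos and at 24.8, 26.7, 26.3 and 26.9 CPM in the 4 Kat6a-/-Kat6b+/+ embryos. With the transgene, the 4 Kat6a+/+ embryos had 20.7, 24.4, 20.9 and 24.7 CPM and the 4 Kat6a-/- embryos 27.6, 27.0, 27.6 and 28.1 CPM. The 8 Kat6a-/- embryos were all above the 8 Kat6a+/+ embryos, and the 4 with the transgene were all above the 4 without it. The spread was narrowest in Kat6a-/-Tg(Kat6b) embryos, with an SD of 0.467 CPM against 2.21 in wild type. The gap between the groups was small: the highest wild-type embryo, at 24.3 CPM, stood just below the lowest Kat6a-/-Kat6b+/+ embryo, at 24.8. In the fit across all genes, the log2 fold change over wild type was 0.32 ± 0.06 (SE) without the transgene and 0.43 ± 0.07 with it, or 1.25-fold and 1.35-fold.

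Ccdc80 was at 23.5, 25.7, 22.9 and 20.5 CPM in wild type and at 30.2, 30.8, 28.7 and 28.1 CPM in Kat6a-/-Kat6b+/+ embryos. With the transgene its levels were 22.3, 21.2, 20.6 and 20.5 CPM where KAT6A was present and 32.8, 31.1, 35.8 and 32.7 CPM where it was not. This was the widest separation of the 4 genes: the order Kat6a+/+, Kat6a-/-Kat6b+/+, Kat6a-/-Tg(Kat6b) held with no overlap. Ccdc80 also had the largest fitted changes, with log2 fold changes over wild type of 0.35 ± 0.06 without the transgene and 0.48 ± 0.06 with it (1.27-fold and 1.40-fold).

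Itga3 was at 75.2, 79.9, 69.0 and 67.3 CPM in wild type and at 85.4, 86.2, 78.1 and 81.6 CPM in Kat6a-/-Kat6b+/+ embryos. Transgenic embryos had 72.8, 78.6, 66.3 and 67.9 CPM on the Kat6a+/+ genotype and 83.8, 102.8, 81.2 and 95.3 CPM on the Kat6a-/- genotype. Here wild type and Kat6a-/-Kat6b+/+ overlapped, since the wild-type male of litter 803 (79.9) was above a Kat6a-/-Kat6b+/+ male of the same litter (78.1). The 2 Kat6a-/-Tg(Kat6b) females were the highest of the 16 embryos, and the 2 males of that genotype lay within the Kat6a-/-Kat6b+/+ range. The fitted log2 fold changes over wild type were 0.18 ± 0.04 and 0.23 ± 0.04 (1.13-fold and 1.17-fold).

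Limd2 was at 130, 126, 107 and 108 CPM in wild type and at 142, 133, 139 and 132 CPM in Kat6a-/-Kat6b+/+ embryos. Among transgenic embryos it was at 119, 108, 109 and 116 CPM with KAT6A and at 144, 139, 135 and 141 CPM without it. The 2 Kat6a-/- groups overlapped each other and were above all Kat6a+/+ embryos. The wild-type embryos fell into a high pair from litters 801 and 803 and a low pair from litters 2597 and 2598. The fitted log2 fold changes over wild type were 0.21 ± 0.04 and 0.21 ± 0.04 (1.16-fold and 1.15-fold).

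Per kilobase of the listed gene length, Limd2 was the most abundant of the 4 in wild type, at 34.0 ± 3.44 RPKM (CPM per kilobase, n = 4), a level above that of 84.5% of the tested genes. Itga3 at 13.8 ± 1.10 and As3mt at 12.1 ± 1.27 RPKM did not differ beyond their spread. Ccdc80 was lowest at 6.27 ± 0.584 RPKM, under the median tested gene at 7.29 RPKM.

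Over all genes tested, 0.944% were called higher in Kat6a-/-Kat6b+/+ than in wild type and 0.274% in Kat6a-/-Tg(Kat6b) than in wild type (edgeR quasi-likelihood test, Benjamini-Hochberg FDR under 0.05). Nothing can be read from the 4 of 4 here, since those calls are the rule. At its edge, the larger of the FDR values of the 2 calls was 0.0321 for Itga3 and 0.0293 for Limd2, and the nearest genes outside were Cyb5r3 at 0.0578 and Tcn2 at 0.0597. Cyb5r3 had log2 fold changes of 0.12 and 0.15, and Tcn2 of 0.25 and 0.27. Those of Itga3 were 0.18 and 0.23, and those of Limd2 were 0.21 and 0.21. All 4 Kat6a-/-Kat6b+/+ embryos were above all wild-type embryos for 3 of the 4 genes, against 3.96% of all genes tested, and all 4 Kat6a-/-Tg(Kat6b) embryos were above all wild-type embryos for 4 of 4, against 3.42%. These are the comparisons of the rule, so nothing can be read from these counts either.

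Within litters 801 and 803, the size of the rise without the transgene differed between the genes. As3mt was 32.2% higher in the 2 Kat6a-/-Kat6b+/+ embryos of litter 801 than in their wild-type littermate, and 34.6% higher in litter 803. For Ccdc80 the differences were 29.5% and 10.4%. For Itga3 they were 14.1% and -0.101%, and for Limd2 5.39% and 7.68%. Each of these rests on 1 wild-type embryo. In litter 801 the Kat6a-/-Kat6b+/+ embryos were females and the wild-type littermate a male, so sex and genotype cannot be told apart there. All embryos of litter 803 were males. Averaged over both litters, Limd2 was 6.51% and Itga3 6.79% above the wild-type littermates. The wild-type embryos of litters 801 and 803 were themselves 19.0% above those of litters 2597 and 2598 for Limd2, 13.7% for Itga3 and 13.7% for Ccdc80, and differed from them by -12.6% for As3mt. In those pairs sex and litter coincide and cannot be told apart. With litter as a block, over 12 embryos, the log2 fold changes without the transgene were 0.42 for As3mt, 0.26 for Ccdc80, 0.10 for Itga3 and 0.09 for Limd2, with edgeR FDR values of 0.194, 0.391, 0.801 and 0.737. All 4 kept their direction and none kept the call.

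The share of the rise that remained was the mean CPM of Kat6a-/-Tg(Kat6b) embryos above wild type, divided by that of Kat6a-/-Kat6b+/+ embryos above wild type. It was 127% ± 13.8 (SE) for As3mt, from rises of 5.14 CPM without and 6.53 CPM with the transgene. For Ccdc80 it was 158% ± 24.6, from 6.30 and 9.97 CPM. For Itga3 it was 180.1% ± 65.3, from 9.95 and 17.9 CPM, and for Limd2 117% ± 19.6, from 18.6 and 21.8 CPM. No share was below 100%, and in mean CPM none of the 4 genes moved back towards wild type. Taken embryo by embryo, the 4 Kat6a-/-Tg(Kat6b) embryos gave 115% to 137% for As3mt and 126% to 201% for Ccdc80. They gave 83.8% to 301% for Itga3 and 90.1% to 142% for Limd2, so 1 embryo lay under 100% for each of these genes, the litter 483 male numbered 3. The rule asked for a call with the transgene as well, so high shares of the 4 genes were favoured by their choice and lend no support. It did not require shares above 100%. Hgsnat and Cyct met it too, with lower means in Kat6a-/-Tg(Kat6b) than in Kat6a-/-Kat6b+/+ embryos. Those means were 32.7 against 36.8 CPM for Hgsnat and 0.461 against 0.699 CPM for Cyct. The 148 genes called higher in Kat6a-/-Kat6b+/+ embryos had a median share of 35.4%, with quartiles of 7.11% and 52.6%, and 5 of them, the 4 genes included, were at or above the lowest share of the 4.

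**Figure D2:**
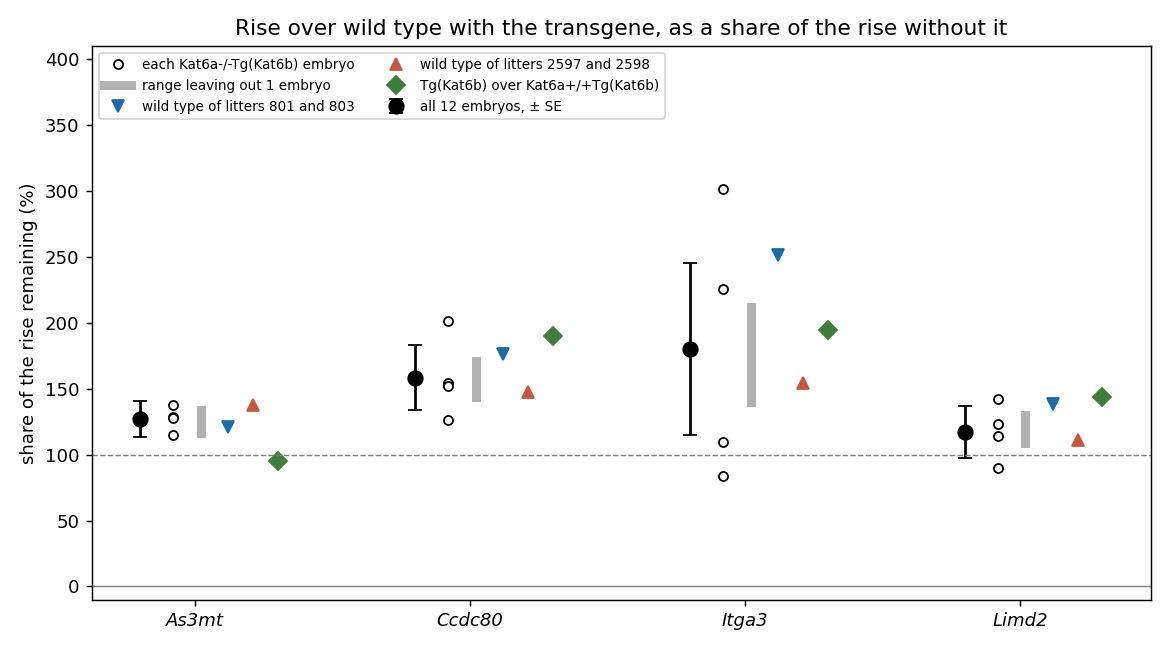
Share of the rise over wild type that remained with the transgene, in percent, for the 4 genes. Filled circles use all 12 embryos with the SE, open circles use each Kat6a-/-Tg(Kat6b) embryo, grey bars span the values when 1 embryo is left out, and coloured symbols use other baselines. The dashed line marks 100%. The values over 12 embryos run from 117% to 180.1%, with the widest error for Itga3.

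The baseline changed the share. Against the wild-type embryos of litters 801 and 803 it was 121% for As3mt, 176% for Ccdc80, 251% for Itga3 and 139% for Limd2, and against those of litters 2597 and 2598 it was 137%, 147%, 154% and 111%. Over the wild-type embryos of litters 801 and 803, the rise without the transgene was 33.4% for As3mt and 19.6% for Ccdc80. It was 6.79% for Itga3 and 6.51% for Limd2, and its tie to the share was not tested. Taking Kat6a-/-Tg(Kat6b) over Kat6a+/+Tg(Kat6b) as the numerator gave 95.2% for As3mt, 190.0% for Ccdc80, 195% for Itga3 and 144% for Limd2. In females alone, where wild type came from litters 2597 and 2598, the Ccdc80 share was 116%, and in males alone 259%. Leaving out each of the 12 embryos in turn gave 117% to 134% for As3mt, 144% to 171% for Ccdc80, 139.6% to 212% for Itga3 and 109% to 129.98% for Limd2.

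The difference between the 2 Kat6a-/- genotypes, which share no litter, was small for all 4 genes. Transgene and litter cannot be told apart in it. The log2 difference of Kat6a-/-Tg(Kat6b) from Kat6a-/-Kat6b+/+ embryos was 0.11 for As3mt (95% interval -0.03 to 0.25) and 0.14 for Ccdc80 (0.01 to 0.27). It was 0.05 for Itga3 (-0.04 to 0.14) and -0.002 for Limd2 (-0.09 to 0.09). The direction for Limd2 was not settled: over 26 alternatives its value ran from -0.03 to 0.19 and kept its sign in 4. The value of As3mt ran from -0.04 to 0.15, below 0 in 1 alternative, a minimum of 10 counts in every embryo. Itga3 ran from 0.01 to 0.14 and Ccdc80 from 0.09 to 0.21, all above 0. In the same comparison 587 genes, or 3.74% of those tested, were called lower. All 4 Kat6a-/-Tg(Kat6b) embryos were above all 4 Kat6a-/-Kat6b+/+ embryos for As3mt and Ccdc80, that is for 2 of 4 genes, against 7.29% of genes tested. The rule used both groups, so no test is given.

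**Figure D3:**
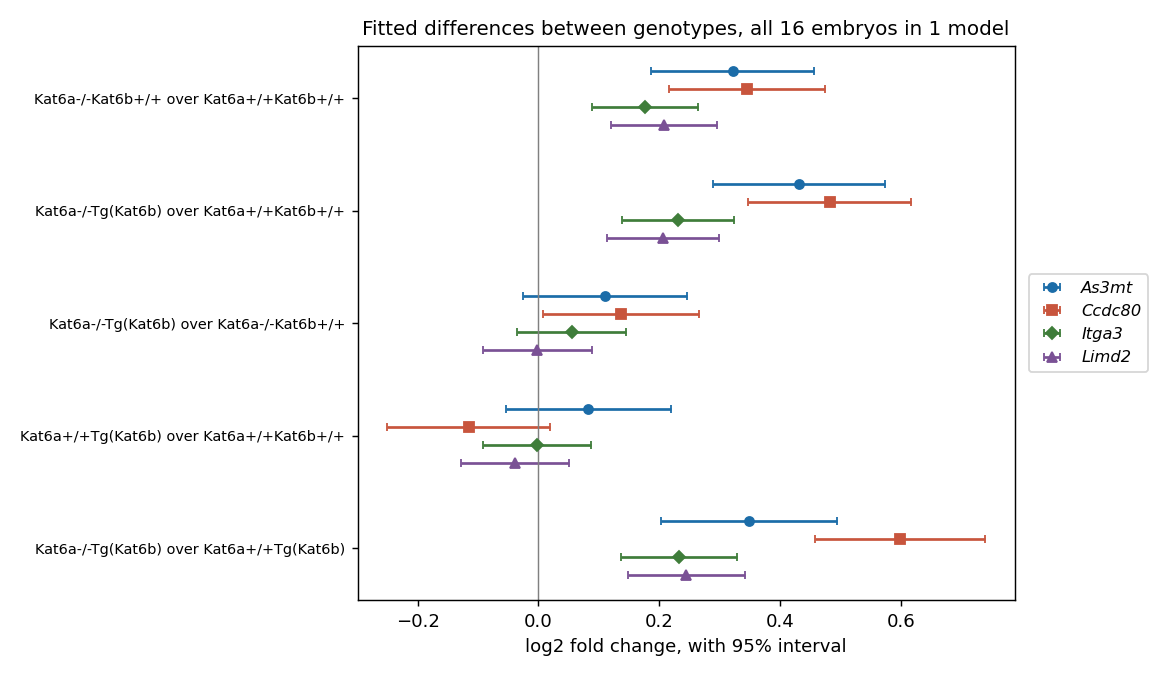
Fitted log2 fold changes with 95% intervals for the 4 genes in 5 comparisons between genotypes, from 1 model of 16 embryos. Intervals lie to the right of 0 for every gene in the comparisons with Kat6a-/- in the first genotype and Kat6a+/+ in the second, and include 0 for every gene for Kat6a+/+Tg(Kat6b) over Kat6a+/+Kat6b+/+. The first 2 comparisons chose the genes.

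The Kat6a+/+Tg(Kat6b) embryos took no part in the choice of genes and show the transgene where KAT6A is present. None of the 4 genes passed the test against wild type, where 0.140% of the genes tested did. The log2 fold changes were 0.08 for As3mt (95% interval -0.05 to 0.22, FDR 0.706), -0.12 for Ccdc80 (-0.25 to 0.02, FDR 0.529), -0.002 for Itga3 (-0.09 to 0.09, FDR 0.997) and -0.04 for Limd2 (-0.13 to 0.05, FDR 0.808) by the edgeR quasi-likelihood test. Two-sided exact permutation tests over the 8 embryos gave p = 0.171, 0.171, 0.714 and 0.543, where 0.0286 is the smallest such a design can give. The groups overlapped for all 4 genes. Over all genes 22 were called and 1805 had an unadjusted p under 0.05. The wild-type embryos in this test had helped choose the genes. Within litter 2597 the 3 transgenic embryos differed from their wild-type littermate by -9.33% for As3mt, -6.64% for Ccdc80, 5.15% for Itga3 and 4.41% for Limd2. In litter 2598 the 1 transgenic embryo and its wild-type littermate were both female. The difference, transgenic over wild type, was 19.6% for As3mt, 0.313% for Ccdc80, 0.818% for Itga3 and 7.03% for Limd2. The sign of As3mt thus differed between the litters, while for Ccdc80 both embryos of litter 2598 were at 20.5 CPM. In litter 2597 the wild-type littermate was a female, and the transgenic embryos were of both sexes. For As3mt the transgenic female there was at 24.4 CPM and the males at 20.7 and 20.9 CPM, against 24.3 CPM in wild type. Sex was not tested within litters.

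Loss of KAT6A among transgenic embryos compares Kat6a-/-Tg(Kat6b) with Kat6a+/+Tg(Kat6b). The former had to be high for a gene to be chosen, while the latter took no part, so this is not an independent test. The counts, FDR values and p-values below are a description and lend no support. All 4 genes were higher, against 2.28% of genes tested. Ccdc80 changed most, by a log2 fold change of 0.60 ± 0.07 (1.51-fold, edgeR FDR 5.48e-05). The values were 0.35 ± 0.07 for As3mt (FDR 0.0112), 0.23 ± 0.05 for Itga3 (FDR 0.0105) and 0.25 ± 0.05 for Limd2 (FDR 0.00744). All 4 Kat6a-/- embryos were above all 4 Kat6a+/+ embryos for each gene, as for 6.09% of genes tested, and the exact permutation p was 0.0286 for each, the smallest possible. Without the Kat6a+/+Tg(Kat6b) embryo numbered 1, the male of litter 2597 with the lowest Kat6b level of the transgenic embryos (155 CPM), the FDR of Itga3 was 0.0513. With those 8 embryos alone the FDR of As3mt was 0.0770. The 2 groups share no litter.

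The interaction gives by how much the effect of KAT6A loss differed with the transgene. It holds the groups of the rule, so no test is given. It was 0.25 (95% interval 0.06 to 0.44) for Ccdc80, 0.03 (-0.17 to 0.22) for As3mt, 0.06 (-0.07 to 0.19) for Itga3 and 0.04 (-0.09 to 0.17) for Limd2 on the log2 scale. The Kat6a+/+Tg(Kat6b) mean of Ccdc80, 21.1 ± 0.811 CPM, was the lowest of its 4 group means.

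Sex did not enter the rule. None of the 4 genes differed between the 8 females and 8 males in a fit with genotype and sex, where 0.0765% of genes tested did. The log2 differences were 0.09 for As3mt, 0.07 for Itga3, -0.05 for Ccdc80 and -0.06 for Limd2, each with an edgeR FDR of 0.998. Itga3 averaged 99.1 CPM in the 2 Kat6a-/-Tg(Kat6b) females and 82.5 in the 2 males, and 68.2 in wild-type females and 77.5 in wild-type males. The order of the sexes thus turned between these genotypes, which was not tested.

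Partners of integrin alpha 3 are given as counts beside the share of all genes tested. Of 21 laminin-binding integrins, tetraspanin partners and laminins, all tested, 1 was called higher in Kat6a-/-Kat6b+/+ than in wild type (0.944% of all genes) and none in Kat6a-/-Tg(Kat6b) (0.274%), with median log2 fold changes of 0.02 and 0.05 beside medians over all genes of 0.003 and -0.003. The 1 gene was Itga6, the alpha chain of another laminin receptor, at 0.17 (edgeR FDR 0.0279), and it was at 0.04 (FDR 0.734) with the transgene. Over Kat6a+/+Tg(Kat6b) embryos, 4 of the 21 were higher in Kat6a-/-Tg(Kat6b), against 2.28% of all genes: Lama5 by 0.37, Lamc1 by 0.28, Lamb1 by 0.19 and Nid2 by 0.18, all basement membrane proteins (FDR 0.0467, 0.0107, 0.026 and 0.0315). None was lower. Of 19 other integrin chains tested, 1 was called higher in Kat6a-/-Kat6b+/+ than in wild type, the leukocyte chain Itgal at 1.30 (FDR 0.0109), and 1 in Kat6a-/-Tg(Kat6b) than in Kat6a+/+Tg(Kat6b), the platelet chain Itgb3 at 0.45 (FDR 0.0108).

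Limd2 has its partners at sites of cell adhesion. Of 20 genes of the integrin-linked kinase complex and focal adhesions, none was called in either Kat6a-/- genotype against wild type, where 0.944% and 0.274% of all genes were called higher, with medians of 0.02 and 0.06. Of the 20, Tln1 at 0.22 (edgeR FDR 0.0291) and Tln2 at 0.36 (FDR 0.0283), the talins that activate integrins, were higher in Kat6a-/-Tg(Kat6b) than in Kat6a+/+Tg(Kat6b), as were 2.28% of all genes. Over wild type, the Kat6a+/+Tg(Kat6b) values of these genes were -0.20 and -0.30 (FDR 0.123 and 0.139).

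Among 24 secreted matrix proteins, the set that holds the relatives of Ccdc80, the elastic-fibre protein Fbln5 was lower in Kat6a-/-Kat6b+/+ than in wild type, as were 0.938% of genes tested, at -0.73 (edgeR FDR 0.00882) and at -0.01 (FDR 0.980) with the transgene. The small proteoglycan Lum was the 1 gene called higher in Kat6a-/-Tg(Kat6b), at 0.42 (FDR 0.0146). In Kat6a-/-Tg(Kat6b) over Kat6a-/-Kat6b+/+ embryos 5 were higher and none lower, against 3.39% of all genes tested that were higher, led by Postn at 1.87 (FDR 0.00703), Dcn at 0.92 (FDR 0.00173) and Fbln5 at 0.72 (FDR 0.00562). Ccdc80 was at 0.14 in the same comparison.

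Of 22 tested genes of arsenic and S-adenosylmethionine metabolism, the set that holds the relatives of As3mt, none was called against wild type in either Kat6a-/- genotype. Their median log2 fold changes were 0.02 and -0.02. The 1 call in this set was Mat2a, which makes S-adenosylmethionine, at 0.22 in Kat6a-/-Tg(Kat6b) over Kat6a-/-Kat6b+/+ (edgeR FDR 0.00754).

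Markers of some tissues moved with genotype, and their part in the levels of the 4 genes was not tested. Of 7 macrophage markers tested, 5 were higher in Kat6a-/-Kat6b+/+ than in wild type, against 0.944% of all genes, among them Mrc1 at 1.38 (edgeR FDR 0.00123). The summed level of the 8 markers listed was 6.52 to 12.8 CPM in wild type and 13.1 to 22.8 CPM in Kat6a-/-Kat6b+/+ embryos. Transgenic embryos had 6.72 to 9.12 CPM with KAT6A and 7.51 to 13.2 CPM without it. Surface ectoderm and epithelial markers, 11 genes, summed to 276 to 333 CPM in wild type and 341 to 417 in Kat6a-/-Tg(Kat6b) embryos, with Krt18 higher at 0.31 (FDR 0.0213), the 1 call of the list beside 0.274% of all genes. The 7 mesenchyme markers summed to 1411 to 1634 CPM in wild type and 1531 to 2073 CPM in Kat6a-/-Tg(Kat6b) embryos, where 2 of the 7 were called higher, both collagens, Col1a2 at 0.20 (FDR 0.0427) and Col3a1 at 0.20 (FDR 0.0129). A further collagen, Col1a1, averaged 169 CPM in wild type and 320 CPM in Kat6a-/-Tg(Kat6b) embryos (FDR 0.0569). The other mesenchyme markers were at -0.12 for Twist1, -0.01 for Prrx1, -0.01 for Pdgfrb and 0.06 for Pdgfra, and Pdgfra was lower in Kat6a-/-Kat6b+/+ than in wild type at -0.24 (FDR 0.0112). Neural tube, somite, heart, endothelial, red cell, trophoblast, decidual and yolk sac lists had no gene called higher in either Kat6a-/- genotype against wild type. The placental markers Tpbpa and Prl8a2 were at 0 in all 16 embryos. Summed levels of the 7 trophoblast markers were 22.3 to 27.2 CPM in wild type. Kat6a-/- embryos had 11.9 to 17.8 CPM without and 27.5 to 36.1 CPM with the transgene. For 6 decidual markers the values were 20.5 to 23.96, 18.5 to 22.2 and 26.2 to 27.6 CPM in the same order. For 8 yolk sac markers they were 15.4 to 56.1, 10.01 to 17.98 and 41.1 to 53.4 CPM. Kat6a+/+Tg(Kat6b) embryos had 13.8 to 27.8, 17.3 to 27.7 and 5.36 to 50.02 CPM for these lists. These sums were not tested. In wild type the trophoblast sum was mostly Hand1, at a mean of 21.4 CPM, with Prl3b1 at 0.981 and Plac1 at 1.79 CPM. Mean Hand1 was 12.3 CPM after KAT6A loss alone and 28.7 CPM with the transgene added. The wild-type yolk sac sum was mostly Afp, at a mean of 30.2 CPM. Mean Afp was 5.10 CPM after KAT6A loss alone and 32.3 CPM with the transgene added. Each of the latter sums thus rests largely on 1 gene in wild type, and the amount of these tissues was not measured. In Kat6a-/-Tg(Kat6b) over Kat6a+/+Tg(Kat6b) embryos, 2 macrophage markers, with Mrc1 at 1.15 (FDR 0.0201), 3 mesenchyme markers, all collagens, and 1 epithelial marker were called higher, against 2.28% of all genes. So were the endothelial Cdh5 at 0.23 (FDR 0.00900) and Dcn, listed for decidua and for matrix, at 0.79 (FDR 0.0131).

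Across the 16 embryos the 4 genes followed each other with Pearson's r from 0.56 (As3mt and Limd2) to 0.89 (Ccdc80 and Limd2) in log2 CPM. The embryos share the 4 genotypes that chose the genes. After removal of the genotype means, r ran from -0.57 (As3mt and Limd2) to 0.47 (Ccdc80 and Limd2), so As3mt and Limd2 were not high in the same embryos of a genotype.

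The genes most like each one, out of 12944 whose average log2 CPM was 1 or more, are given with r over 16 embryos and no test. For As3mt they were Lipo3 (r = 0.86), Mfsd13a (0.86) and Kitl (0.83). Lipo3 and Mfsd13a also lie on chromosome 19, Mfsd13a at 0.332 Mb from As3mt, and all 3 kept an r of 0.75 or more within genotypes (0.80, 0.75 and 0.78). Kitl encodes the ligand of the KIT receptor. For Itga3 they were Nat10 (0.93), Ablim1 (0.92) and Coa5 (0.91), also alike within genotypes (0.89, 0.86 and 0.83). For Ccdc80 they were Ece1 (0.91), which makes active endothelin, Krt15 (0.90) and Limd2, with lower values within genotypes (0.48, 0.55 and 0.47). For Limd2 they were Krt15 (0.91), Pno1 (0.90) and Saraf (0.90).

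Krt15, an epithelial keratin, had a high and a low pair within wild type. It was at 2.83 and 2.82 CPM in the wild-type embryos of litters 801 and 803 and at 0.402 and 0.755 CPM in those of litters 2597 and 2598. In Kat6a-/-Kat6b+/+ embryos, all of litters 801 and 803, it was at 2.93 to 3.25 CPM, and in Kat6a+/+Tg(Kat6b) embryos, all of litters 2597 and 2598, at 0.412 to 0.938 CPM. The 4 Kat6a-/-Kat6b+/+ embryos were above both wild-type embryos of their litters. Litter pair and sex coincide within wild type, and neither was tested. Limd2 showed the same high and low wild-type pairs on a smaller scale.

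Neighbouring genes were counted in the same way. Within 100 kb, 24 genes were tested and 1 was called in Kat6a-/-Kat6b+/+ against wild type, the homeobox gene Dlx3 at 43.3 kb from Itga3, which was lower at -0.40 (edgeR FDR 0.0321), beside 0.938% of all genes that were lower. In Kat6a-/-Tg(Kat6b) against wild type the 1 call was Sfxn2, a mitochondrial carrier gene 88.0 kb from As3mt, at 0.33 (FDR 0.0184), beside 0.274% of all genes that were higher. Borcs7 ends 4.03 kb from As3mt on the same strand, and it was at 0.02 and -0.23 in the 2 comparisons (FDR 0.924 and 0.201). In Kat6a-/-Tg(Kat6b) over Kat6a+/+Tg(Kat6b) embryos it was lower at -0.35 (FDR 0.0193), while Sfxn2 was higher at 0.29 (FDR 0.0208), as As3mt was. Col1a1, a fibrillar collagen gene 91.4 kb from Itga3, was higher there at 1.37 (FDR 0.00905), which makes 2 of 24 called higher and 1 lower, against 2.28% of all genes higher. Map3k3, whose exons overlap Limd2, was at -0.11 without and 0.05 with the transgene (FDR 0.129 and 0.670). Within 1 Mb, 38 genes were tested around As3mt, 17 around Ccdc80, 38 around Itga3 and 33 around Limd2, 126 in all. Of these, 2 were called higher (0.944% of all genes) and 3 lower (0.938%) in Kat6a-/-Kat6b+/+ than in wild type, and 1 higher (0.274%) and none lower in Kat6a-/-Tg(Kat6b).

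**Figure D4:**
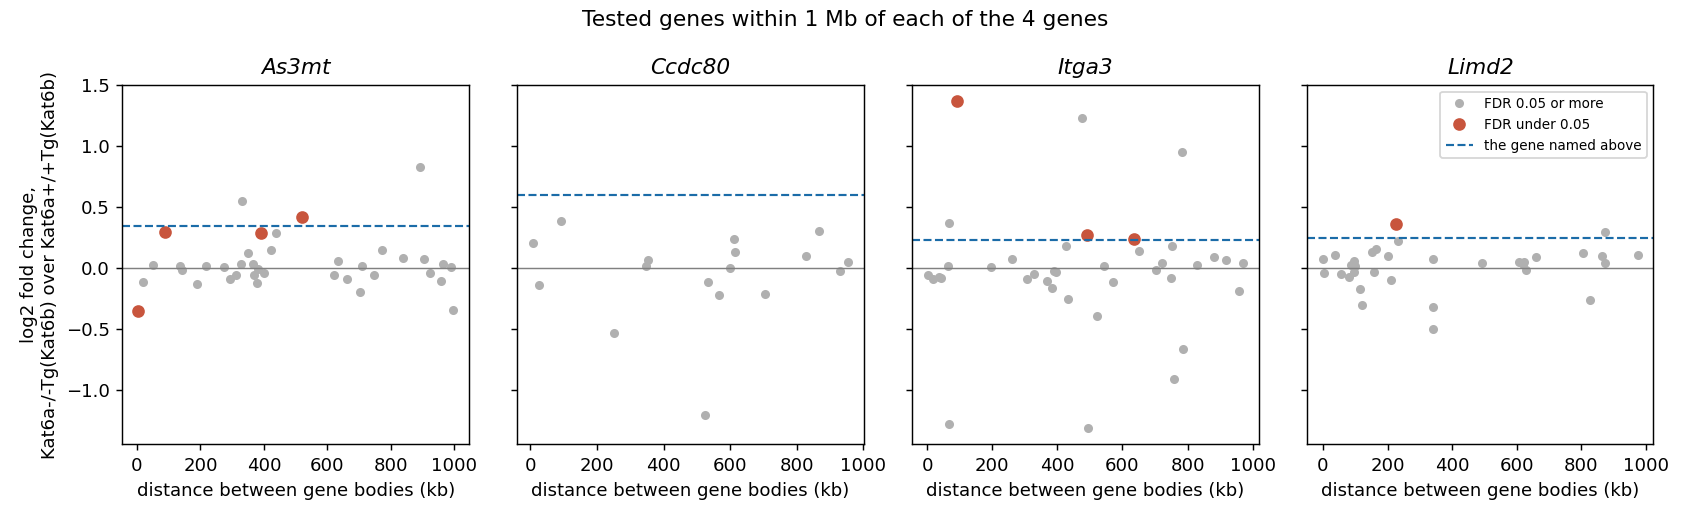
Log2 fold change of Kat6a-/-Tg(Kat6b) over Kat6a+/+Tg(Kat6b) embryos for tested genes within 1 Mb of each of the 4 genes, against distance in kb. Red points are called at an FDR under 0.05 and the dashed line is the value of the gene named above the panel. Most points lie near 0, and the called gene nearest As3mt, Borcs7, lies at -0.35.

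Of the 2 further genes that met the same calls, Hgsnat had another pattern. Cyct, at low counts, was high in the same genotypes as the 4 genes. Hgsnat, a lysosomal acetyltransferase gene, averaged 20.95 ± 1.81 CPM in wild type and 36.8 ± 1.98 CPM in Kat6a-/-Kat6b+/+ embryos. Transgenic embryos averaged 27.9 ± 1.98 CPM with KAT6A and 32.7 ± 3.15 CPM without it. Unlike the 4 genes, it was higher in Kat6a+/+Tg(Kat6b) than in wild type, by a log2 fold change of 0.43 (edgeR FDR 0.0153), a test in which the wild-type embryos had helped choose the gene. Cyct, the testis form of cytochrome c, had 0, 0, 1 and 0 counts in wild type and 2, 35, 20 and 21 counts in Kat6a-/-Kat6b+/+ embryos. Transgenic embryos had 1, 1, 1 and 2 counts with KAT6A and 12, 12, 9 and 17 counts without it. Like the 4 genes, Cyct was not called in Kat6a+/+Tg(Kat6b) over wild type, at 1.69 (edgeR FDR 0.702). The wild-type embryos had helped choose this gene too.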

How the data were processed

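RNA from 16 whole E9.5 embryos was sequenced in pairs of reads, aligned by the authors to mm39 with Rsubread and counted with featureCounts, which the submitters' processing notes name without a version. The authors deposited raw counts per gene, with a gene length, and not normalised. The annotation, strand setting and treatment of shared reads are not given in the sources used here. No per-sample column was left unused.

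Counts of the 15679 genes kept by edgeR's filter (minimum count 10, minimum total 15) were scaled by TMM (factors 0.985 to 1.02) and fitted by the robust edgeR quasi-likelihood test with 4 genotypes and 2 surrogate variables from sva, over all 16 embryos, with Benjamini-Hochberg FDR under 0.05. The fit of females against males used genotype and sex. Shares used mean TMM-scaled CPM, with a delta-method SE. Single levels were tested by two-sided exact permutation. Total counts were 14407277 to 45665680, and the 4 genes had 298 to 6410 counts per embryo. Counting error is covered by the spread between embryos. No replicate pair agreed within sampling noise (chi-square per degree of freedom 1.83 to 15.7 over 24 pairs). The test was tried on simulated counts with known changes. Alternatives were 0 or 1 surrogate variables, a fit of only the 2 genotypes compared, terms for sex, replicate and litter, DESeq2, limma-voom, DESeq2's size factors, a minimum of 10 counts per embryo or no filter, and leaving out each embryo. The wild-type baseline of litters 2597 and 2598 was added after seeing the data.

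The 4 genes, the gene lists and the markers were chosen with earlier results of these data known. Further genes named were those called higher in both Kat6a-/- genotypes, up to 4 called genes per list and comparison by size, the 3 genes most alike per gene, tested neighbours within 100 kb, and defining markers. Krt15, Borcs7 and Map3k3 are described for values seen afterwards. Versions were R 4.3.3, edgeR 4.0.16, limma 3.58.1, sva 3.50.0, DESeq2 1.42.0, Python 3.11.15 and scipy 1.17.1.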

Additional observations from a re-analysis of the deposited data

Results flagged for a closer look

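In 5 of 72 groups of 4 embryos checked, over 18 genes, 1 embryo stood far from the other 3, and chance alone gives about 1 such group in 20. None of the 5 was for As3mt, Ccdc80, Itga3 or Limd2. Kat6a was at 138 CPM in the Kat6a+/+Tg(Kat6b) male numbered 1 of litter 2597, against 189 to 196 CPM in the other 3 embryos of that genotype. Krt15 was at 6.29 CPM in the Kat6a-/-Tg(Kat6b) male numbered 3 of litter 483, against 3.87 to 4.20 CPM in the other 3. Ablim1 was at 60.5 CPM in 1 Kat6a-/-Kat6b+/+ embryo, against 67.4 to 68.4 CPM in the rest of its group. Cyct was at 0.0446 CPM in 1 wild-type embryo (1 count) and at 0 in the rest, and at 0.0873 CPM in 1 Kat6a+/+Tg(Kat6b) embryo (2 counts) against 0.0412 to 0.0426 CPM.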

How the results depend on the processing

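The 4 genes kept their direction in each of the 2 comparisons that chose them, and in Kat6a-/-Tg(Kat6b) over Kat6a+/+Tg(Kat6b), under all alternatives run. The calls that chose Itga3 were the least firm: in Kat6a-/-Kat6b+/+ over wild type it kept an FDR under 0.05 in 10 of 27 alternatives, against 18 for Limd2, 21 for As3mt and 25 for Ccdc80. In Kat6a-/-Tg(Kat6b) over wild type the calls held in 26 of 26 alternatives for As3mt and Ccdc80, 21 for Itga3 and 20 for Limd2. Both comparisons chose the genes, and the alternatives reused the same embryos. The kept directions and calls are therefore a description and lend no support.

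The share of the rise that remained moved by more than its spread over embryos as follows. With Kat6a+/+Tg(Kat6b) as the baseline of the transgenic embryos it was 95.2% for As3mt, 190.0% for Ccdc80 and 144% for Limd2. In females alone it was 154% for As3mt and 116% for Ccdc80, and in males alone 115% for As3mt, 259% for Ccdc80 and 149.6% for Limd2. Against wild type of litters 2597 and 2598 it was 137% for As3mt. Leaving out 1 embryo gave 117% to 134% for As3mt.

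Counts of called genes moved by over 1.5 times as follows, and the cause was not tested. For Kat6a-/-Kat6b+/+ over wild type, 295 genes became 95 with no surrogate variables, 96 with 1, 117 with at least 10 counts per embryo, 91 with sex, 127 with the replicate block, 85 with the 2 genotypes alone and 18 with a term for litter. For Kat6a-/-Tg(Kat6b) over wild type, 105 became 244 with DESeq2 and 158 with no filter. For Kat6a-/-Tg(Kat6b) over Kat6a-/-Kat6b+/+, 1119 became 614 with no surrogate variables, 606 with 1, 98 with at least 10 counts per embryo and 589 with sex. For Kat6a+/+Tg(Kat6b) over wild type, 22 became 5 with no surrogate variables, 5 with 1, 5 with sex, 5 with the replicate block, 219 with DESeq2, 315 with no filter, 2 with the 2 genotypes alone and 1 with a term for litter. For Kat6a-/-Tg(Kat6b) over Kat6a+/+Tg(Kat6b), 535 became 883 with DESeq2, 1011 with no filter and 265 with the 2 genotypes alone.

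Leaving out 1 embryo gave 137 (wild type 2 or 3) to 432 calls (Kat6a+/+Tg(Kat6b) 1) for Kat6a-/-Kat6b+/+ over wild type and 39 (Kat6a-/-Tg(Kat6b) 2) to 210 (Kat6a+/+Tg(Kat6b) 1) for Kat6a-/-Tg(Kat6b) over wild type. It gave 492 (Kat6a-/-Kat6b+/+ 1) to 1671 (Kat6a+/+Tg(Kat6b) 1) between the Kat6a-/- genotypes, 165 (Kat6a+/+Tg(Kat6b) 1) to 876 (wild type 4) between the transgenic genotypes, and 1 (wild type 1) to 108 (wild type 4) for Kat6a+/+Tg(Kat6b) over wild type.

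In Kat6a+/+Tg(Kat6b) over wild type, where no gene of the 4 was called, the log2 fold change turned to 0.0487 for Itga3 and 0.0762 for Limd2 with a term for litter, and to 0.0340 for Limd2 with at least 10 counts per embryo. Leaving out 1 embryo gave -0.0390 to 0.0231 for Itga3 and -0.0767 to 0.00199 for Limd2.

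Replicate numbers do not pair the embryos: 12 of 24 pairs with the same number in different genotypes had deviations correlated above 0.1 (-0.46 to 0.45), and in 16 of 48 checks an embryo correlated best with its own number. With the replicate block the 4 genes stayed called between the transgenic genotypes.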
